A study of Mus musculus with 27 samples.

Results

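DNA methylation was described at 10 genes of the canonical Wnt pathway and of liver zonation in mouse hepatocytes. The genes were Glul, Axin1, Axin2, Lgr5, Rnf43, Znrf3, Tbx3, Ctnnb1, Apc and Lect2. Their positions were the single cytosines of CpG dinucleotides that lay within the GRCm38 span of a gene or within 5 kb of either side, and that were listed in at least 2 of the 3 samples of every strain. Of 1951628 positions of the genome that met this condition, 2086 belonged to the 10 genes. They were part of 3868 positions in these stretches that at least 1 sample listed, and the rest were left out.

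The samples were hepatocytes from the livers of 27 female mice aged 12 weeks, 3 from each of 9 inbred strains. They comprised the laboratory strains A/J, C57BL/6J, DBA/2J, 129S1/SvImJ, NZO/HlLtJ and NOD/ShiLtJ and the wild-derived strains PWK/PhJ, WSB/EiJ and CAST/EiJ. No strain was a control and the labels name no treatment, so the question was how far the 9 strains differed from each other. The series belongs to a survey of histone marks, DNA methylation and gene expression in hepatocytes of these strains. Methylation was read by reduced representation bisulfite sequencing (RRBS), in which MspI cuts DNA at CCGG and the reads therefore come mostly from CpG-rich stretches.

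In the liver lobule, hepatocytes around the central vein receive Wnt ligands from neighbouring endothelial cells, and hepatocytes around the portal vein receive little. Without Wnt, a complex built on Apc and Axin1 marks beta-catenin, the product of Ctnnb1, for destruction. With Wnt, beta-catenin enters the nucleus and, with TCF factors, activates target genes such as Glul, Axin2, Lgr5, Tbx3 and Lect2. Rnf43 and Znrf3 are membrane ubiquitin ligases that remove the Wnt receptors, and R-spondins bound to Lgr5 family receptors hold them back. A hepatocyte sample therefore mixes cells that do and do not express the target genes. A percentage from such a sample cannot tell apart cells that differ from each other and alleles or reads that differ within cells. The zone of the cells is not in the labels, and whether any intermediate level below reflects a zonal mixture was not tested.

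Between 2904787 and 3156965 positions were listed per sample over the whole genome. The coverage behind each percentage is unknown, so no counting interval can be given, and differences between strains are set against the spread of the 3 samples. The number of mice limits the precision. The labels call the 3 samples of a strain biological replicates and do not say whether they were prepared on separate days. The promoters of the hepatocyte genes Apoa2 (0.805%), Fgb (4.59%) and Hnf4a (5.53%) were low. The upper end of the gene span of Csf1r, a macrophage gene for which no promoter window was defined, was at 93.2%. Among genes of other cell types, the endothelial promoter read, of Kdr, was at 3.13%, and the stellate cell promoters of Lrat and Des were at 5.93% and 13.6%. The 5 regions of bile duct genes ran from 1.02% at Sox9 to 91.4% at the lower end of Krt19, with a median of 11.4%. Krt19 likewise had no promoter window, so its end and that of Csf1r cannot be read as promoter levels. Markers of 5 other cell types were read at 10 promoters or ends of 9 genes of 18, over a range of 1.02 to 93.2%, with 4 under 10%. These markers therefore give no share of other cells, and the part of other cells in the results below was not tested.

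The starts of the genes came first. A promoter here is the stretch within 1000 bp of a transcription start in RefSeq (GRCm38.p6). That table held a start for 5 of the 10 genes, Glul, Axin2, Rnf43, Ctnnb1 and Lect2. For the other 5, both ends of the gene span were read and kept apart as the lower and the upper end, by coordinate. Every start region with CpG-dense coverage was almost free of methylation in all 9 strains.

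At Glul, which encodes glutamine synthetase and marks the innermost ring of pericentral hepatocytes, the 107 promoter positions averaged 0.634% ± 0.304 (SD over 27 samples), and no sample exceeded 1.32%. At Axin2, a feedback inhibitor and a general Wnt target, 227 promoter positions averaged 0.449% ± 0.154. At Ctnnb1, 221 positions around 2 starts averaged 1.07% ± 0.219. At the lower end of Apc, where the transcript begins, 107 positions averaged 0.507% ± 0.170. The upper end of Znrf3 averaged 0.477% ± 0.197 over 213 positions and that of Lgr5, a receptor for R-spondins, 0.893% ± 0.348 over 80 positions. Both genes lie on the reverse strand and begin at that end. The lower end of Tbx3, a transcription factor of pericentral hepatocytes and the end at which its transcript begins, averaged 0.742% ± 0.423 over 97 positions. In these 7 regions the strain means spanned at most 0.788 percentage points, the span at Lgr5.

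The sequence of 250 bases before the start is shown for Glul and Axin2, as pericentral and general targets, and for Lect2, whose start holds fewer CpGs than theirs. All are from RefSeq, GRCm38.p6, read 5′ to 3′ on the gene's strand. Glul lies on the forward strand at chr1:153899679-153899928, Axin2 on the forward strand at chr11:108920099-108920348 and Lect2 on the reverse strand at chr13:56548539-56548788. Capitals mark the CpGs at which a position was read.
Glul: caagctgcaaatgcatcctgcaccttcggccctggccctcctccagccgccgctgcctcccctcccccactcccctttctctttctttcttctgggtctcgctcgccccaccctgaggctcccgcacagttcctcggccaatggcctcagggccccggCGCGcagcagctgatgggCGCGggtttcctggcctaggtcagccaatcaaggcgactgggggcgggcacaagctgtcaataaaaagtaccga
Axin2: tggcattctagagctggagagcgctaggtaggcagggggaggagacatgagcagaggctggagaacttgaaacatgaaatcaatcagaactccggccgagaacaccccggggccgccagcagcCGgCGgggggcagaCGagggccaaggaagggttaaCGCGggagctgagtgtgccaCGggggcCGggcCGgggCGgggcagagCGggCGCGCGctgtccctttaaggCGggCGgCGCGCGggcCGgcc
Lect2: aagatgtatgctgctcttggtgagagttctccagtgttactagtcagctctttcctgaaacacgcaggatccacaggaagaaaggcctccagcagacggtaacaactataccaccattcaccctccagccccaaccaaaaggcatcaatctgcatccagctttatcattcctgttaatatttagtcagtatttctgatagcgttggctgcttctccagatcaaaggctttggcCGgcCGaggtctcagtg

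The Glul stretch holds 15 CpGs, of which 4 were read, and its 4 positions lay between 0.337 and 0.866%. The Axin2 stretch holds 24 CpGs, of which 19 were read at 36 positions, counting both strands. The Lect2 stretch holds 5 CpGs, of which 2 were read. The TCF motifs CTTTGAT and CTTTGTT were searched on both strands of the 300 bases from 250 before to 50 after each start. Among the windows of the 5 genes, only that of Lect2 held a match, 1 CTTTGAT, on the strand opposite to the printed one (atcaaag in the printed sequence). Either motif was found in 9.33% of the 32851 windows in the table, and a match is a run of letters, not a bound site.

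Lect2 encodes a secreted protein made by hepatocytes and is known as a target of beta-catenin in the liver. Its promoter held 9 read positions with a mean of 8.27% ± 4.11 (SD over 27 samples), or 13.8% with the strands of each CpG averaged first. This mean joined 2 unlike parts. The 8 positions from -17 to 75 bp of the start averaged 1.35%, and none was above 1.92%. The ninth, at -401 bp (chr13:56548939), stood at 63.5%, with strain means from 33.3% in NOD/ShiLtJ to 94.4% in C57BL/6J. Samples of a strain lay far apart there, with SDs of 28.9 points in NOD/ShiLtJ, 9.62 in C57BL/6J and 57.7 in 129S1/SvImJ. This position was not called, with an adjusted p of 0.644 in limma's F test. Over all 9 positions the strain means ran from 4.15% in NOD/ShiLtJ to 12.1% in C57BL/6J, and limma's F test over strains gave an adjusted p of 0.288.

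No position was read within 1000 bp of the 2 starts of Rnf43 or of either end of Axin1. The 56 unmethylated positions in the Rnf43 flank, at 0.597%, lie beyond the gene and overlap Supt4a, a neighbour. The 119 unmethylated positions of Axin1, at 0.384%, lie 7486 to 7995 bp into the span and overlap the annotated gene Gm46600. The 2 starts of Rnf43 in the table were thus not measured. For Axin1 the table gives no start, and whether its unmethylated stretch holds one was not tested.

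A promoter or gene end was called different among strains on 2 conditions, an adjusted p under 0.05 and a distance of 10 percentage points or more from the lowest to the highest strain mean. In the whole genome 16.4% of 5473 tested regions met this rule. Of the 10 genes, 9 promoters or ends had 5 or more positions, and 7 of them had a mean under 2.5%, below which no test was made. The 2 that were tested, the Lect2 promoter and the upper end of Tbx3, were not called. With only 2 tested regions that count cannot be read against the background.

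**Figure D1:**
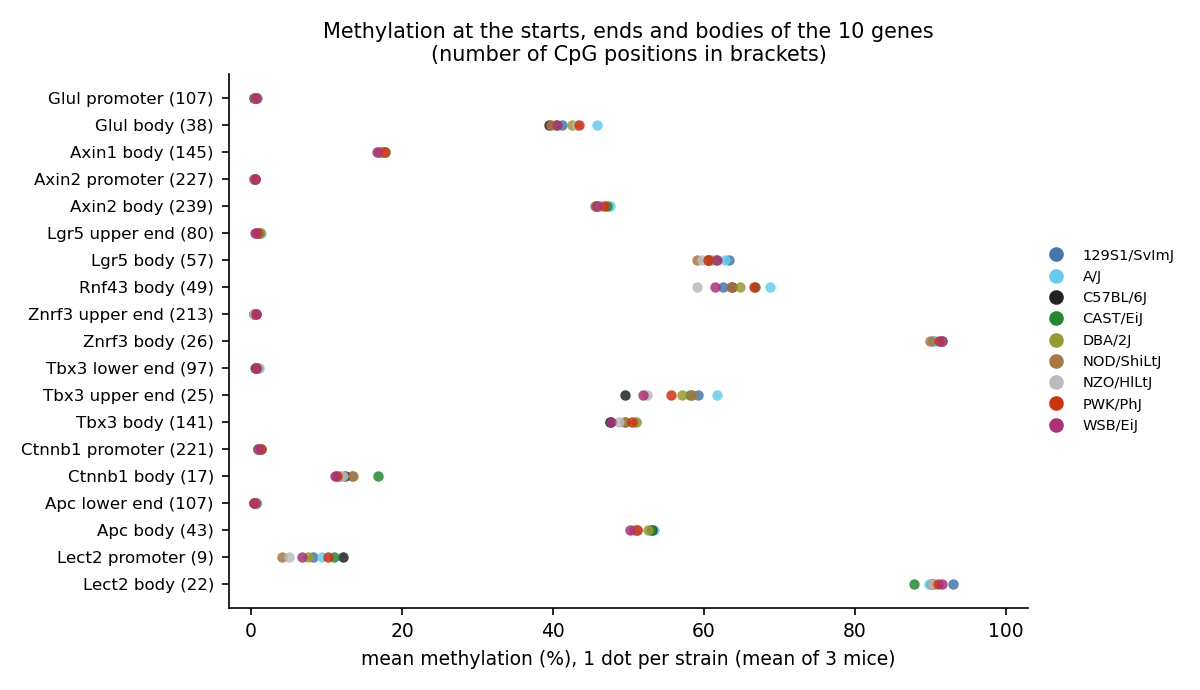
Mean methylation of the promoters, gene ends and bodies that held at least 5 positions. The x axis is percent methylation, each row is 1 region with its number of positions, and each dot is the mean of the 3 mice of 1 strain. The 7 CpG-dense start regions have means of 0.449 to 1.07%, the Lect2 promoter lies at 8.27% and the upper end of Tbx3 at 56%, while the bodies spread from 12.6% at Ctnnb1 to 91.0% at Znrf3 with little distance between strains.

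The gene bodies, taken as the positions inside the span and more than 1000 bp from a start, or from both ends where no start was known, ran from 12.6% to 91.0%. Znrf3 (91.0% ± 1.98, 26 positions) and Lect2 (90.5% ± 2.53, 22 positions) were the highest. Rnf43 (64.1% ± 3.31), Lgr5 (61.1% ± 2.22), Apc (51.8% ± 2.32), Tbx3 (49.2% ± 1.80), Axin2 (46.3% ± 0.872) and Glul (41.8% ± 2.68) lay between. Axin1 (17.3% ± 0.619) and Ctnnb1 (12.6% ± 2.37) were the lowest. The errors are SDs over the 27 samples, and the choice of positions moved most of these levels by more, as given at the end. The middle values were mostly averages of unmethylated and methylated positions. In Glul, for example, the unmethylated stretch around the start ran 1725 bp into the gene. A single position followed at 1872 bp, with 46.6%, and the next position, 3125 bp from the start, was at 94.7%. The low value of Axin1 was such an average as well. Of its 145 body positions, 119 were under 10%, all in its unmethylated stretch, and 25 were above 90%. The body of Ctnnb1 took in part of the unmethylated stretch around its start, which ran 3133 bp into the gene.

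None of the 10 bodies was called different among strains, against 14.0% of 11921 bodies in the genome. The median span of strain means was 3.91 points over the 10 and 6.00 points over all bodies. At unadjusted p under 0.05 there were 2, Rnf43 and Glul, against 39.4% of all tested bodies.

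Rnf43 came closest. Its body, of 49 positions, had 68.4, 67.6 and 70.5% in the A/J samples and 61.1, 60.4 and 55.6% in the NZO/HlLtJ samples. The PWK/PhJ samples had 69.8, 64.6 and 65.4%, CAST/EiJ 65.7, 68.5 and 66.3%, DBA/2J 65.1, 65.9 and 63.3%, and C57BL/6J 60.9, 65.7 and 64.6%. The values were 62.9, 63.2 and 64.7% in NOD/ShiLtJ, 61.5, 61.5 and 64.4% in 129S1/SvImJ, and 62.8, 60.0 and 61.6% in WSB/EiJ. A/J and NZO/HlLtJ, picked as the highest and the lowest strain, did not overlap, and each of them overlapped samples of other strains. The share of all bodies whose highest and lowest strains do not overlap was not counted. The adjusted p was 0.0031 in limma's F test, and the span of 9.78 points fell just short of the required 10. Leaving out A/J replicate 2 brought the span to 10.4 points (adjusted p 0.00542), leaving out NZO/HlLtJ replicate 1 to 10.8 (0.00398) and NZO/HlLtJ replicate 2 to 10.5 (0.00582), each of which made the body a call. In the other 34 of 37 alternatives the body was not called. Over all alternatives the span ran from 7.05 to 10.8 points, and the adjusted p was at most 0.0115.

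At the Glul body, of 38 positions, the A/J samples had 44.6, 46.3 and 46.5%, and the C57BL/6J samples 37.8, 41.6 and 38.9%. The strain means spanned 6.37 points, from 39.4 to 45.8%, with an unadjusted p of 0.039 and an adjusted p of 0.106. A/J was the highest strain in 4 of the 10 bodies and in 20% of all bodies of the genome, and PWK/PhJ in none of the 10 and in 22.3% of all bodies.

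Single positions were tested where their mean lay at least 2.5 points from both 0 and 100%, which left 590 of the 2086. Of the 2086, 1536 had a mean under 10%. The rule asked for an adjusted p under 0.05 and strain means that spanned at least 25 points. It was met by 4.33% of 868536 positions in the genome and by 14 of the 590 (2.37%). At unadjusted p under 0.05 there were 90 (15.3%), against 15.4% of all tested positions. Of the 14 calls, 9 were among 218 tested positions of Tbx3 (4.13%, near the genome's share), 2 among 26 of Glul, 2 among 52 of Rnf43 and 1 among 133 of Axin2. Axin1, Lgr5, Znrf3, Ctnnb1, Apc and Lect2 had none, with 18 to 43 positions tested in each. Without 129S1/SvImJ replicate 1 the number of calls was 9 (1.53%), against 4.16% of all positions.

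PWK/PhJ was the highest strain at 8 of the 14 called positions (57.1%), against 22.8% of the called positions of the genome. Neighbouring positions can share reads, and 3 CpGs were called on both strands, so these 14 are not independent. Without PWK/PhJ, an alternative added after the data were seen, 7 positions of the 10 genes were called (1.17%), against 2.89% of all positions.

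Rnf43 held a position of intermediate level in its body (chr11:87710041) at which the PWK/PhJ samples had 56.2, 50 and 66.7% and the CAST/EiJ samples 28.6, 52.4 and 41.9%. The lowest strain was NOD/ShiLtJ with 11.1, 0 and 13.6%. Its adjusted p was 0.0394. It rose above 0.05 in 22 of 36 alternatives, 16 of which left out 1 sample, and reached 0.398 without PWK/PhJ. The other called Rnf43 position (chr11:87729472) was at 100% in all NOD/ShiLtJ samples and at 66.7, 69.2 and 75% in the C57BL/6J samples (adjusted p 0.0137). It was not called without any one of the NOD/ShiLtJ samples, with adjusted p of 0.0518, 0.0514 and 0.0520, nor with strands averaged, where the span was 21.3 points. With the replicate number as a block its adjusted p was 0.0583.

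Both called positions at Glul are the 2 strands of 1 CpG (chr1:153910131 and chr1:153910132), which lies beyond the far end of the gene. On the first, CAST/EiJ had 26.7, 52.9 and 29.2%, 1 NZO/HlLtJ sample had 25%, and the other 19 samples that listed it had 0. On the second, CAST/EiJ had 40.9, 38.5 and 40% and PWK/PhJ 20, 50 and 50%. Of the other strains, 1 A/J sample had 50%, as high as PWK/PhJ, 1 NOD/ShiLtJ sample had 16.7%, and the rest had 0. Each position was listed in 23 samples. Without either PWK/PhJ replicate 3 or replicate 1 the second was not called (adjusted p 0.0534 and 0.0536), nor without the strain (0.124) or without the filter on the mean (0.074). With the replicate number as a block neither was called, with adjusted p of 0.123 at the first and 0.126 at the second. The Axin2 call (chr11:108931454) rested on 2 C57BL/6J samples, at 66.7% and 0, against 91.7 to 100% in the other 21 (adjusted p 0.00551). With strands averaged its span fell from 66.7 to 27.8 points and the adjusted p was 0.131, which ended the call. Whether sequence variants of the strains at these CpGs set the values was not tested, since strain genomes were not used here.

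Tbx3 stood apart in the number of positions that were neither low nor high. Along its span, chr5:119670534-119684724, and flanks, 389 positions fell into blocks. Distances are from the lower end, where transcription begins. The 4 outermost upstream positions averaged 87.1%. From -2316 to -1560 bp, 21 positions averaged 24.6%. From -1559 to 3621 bp, 151 positions averaged 1.14%, the longest unmethylated stretch of the 10 genes with 5181 bp. From 3636 to 5185 bp, 15 positions averaged 23.6%, and a block of 74 positions at 10028 to 10566 bp averaged 87.7%. Beyond the far end a second unmethylated stretch of 39 positions (1.20%) at 15395 to 15874 bp was flanked by 25 positions at 55.8% and 54 at 39.1%. These blocks were drawn with the values in view and carry no test.

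**Figure D2:**
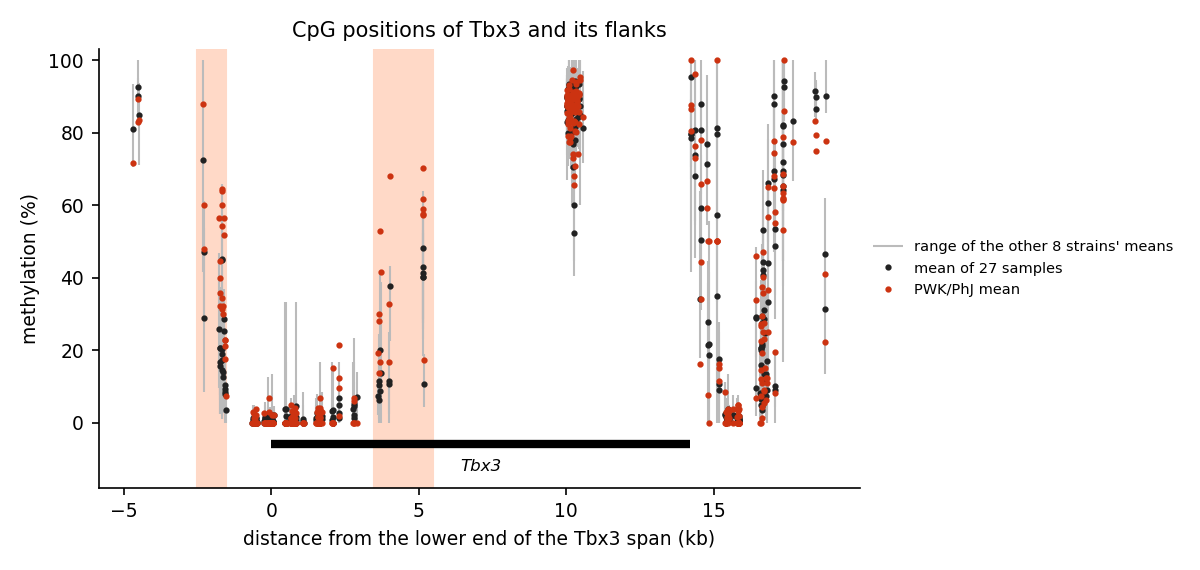
Methylation of 389 CpG positions at Tbx3. The x axis is the distance in kb from the lower end of the gene, the y axis percent methylation; black points are means of 27 samples, red points PWK/PhJ means, grey lines the range of the other 8 strains' means, and shaded windows the 3 of 1 kb that differed among strains. On average PWK/PhJ is the highest strain on both sides of the unmethylated stretch, at 45% and 41.6%, and within the stretch the strain averages lie between 0.812 and 1.47%.

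The unmethylated stretches of the other genes were shorter. They spanned 3355 bp at Ctnnb1, 2771 bp at Lgr5, 2589 bp at Axin2, 1817 bp at Glul, 1435 bp at Znrf3, 1206 bp at Apc and 93 bp at Lect2. The number of read positions sets where such a stretch appears to end. At Glul the nearest methylated neighbour was 1790 bp away on the upstream side, and at Znrf3 34456 bp away inside the gene.

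The 3 windows of 1 kb that were called different among strains were all at Tbx3. Windows were tested where they held at least 5 positions with a mean as far from 0 and 100% as for single positions. The rule, with a span of at least 25 points, was met by 7.76% of 57387 windows in the genome. Of the windows that overlap the 10 genes and their flanks, 3 of 41 met it (7.32%), a share near the background.

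The first, chr5:119668001-119669000, lies upstream of Tbx3 at -2533 to -1534 bp and overlaps Tbx3os1, an antisense transcript. Over its 23 positions the PWK/PhJ samples had 40.8, 43.0 and 43.3%. The C57BL/6J samples had 30, 33.3 and 17.6%, CAST/EiJ 27.6, 22.5 and 22.7%, NZO/HlLtJ 28.1, 21.9 and 20.4%, and NOD/ShiLtJ 27.3, 18.2 and 24%. The values were 17.5, 20.9 and 20.7% in WSB/EiJ, 17.6, 19.0 and 16.0% in A/J, 20.3, 11.3 and 17.8% in DBA/2J, and 6.7, 12.9 and 11.3% in 129S1/SvImJ. All 3 PWK/PhJ samples lay above the other 24, the highest of which was at 33.3%, and 129S1/SvImJ was the lowest strain. Windows in which PWK/PhJ lay above all other samples made up 2.19% of those tested in the genome. The means were 42.3% ± 1.38 (SD, n = 3) in PWK/PhJ and 10.3% ± 3.23 in 129S1/SvImJ, and the adjusted p of limma's F test was 9.36e-05. Without PWK/PhJ the adjusted p was 0.0198 and the strain means spanned 16.7 points, under the required 25.

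Within this window 6 positions were called, among them both strands of 2 CpGs. The one with the widest span (chr5:119668856) had 44.0, 85.7 and 50% in PWK/PhJ against 0, 3.2 and 0% in 129S1/SvImJ. Its adjusted p was 0.0317. It was above 0.05 in 10 of 35 alternatives, among them those without any 1 of the 129S1/SvImJ samples, CAST/EiJ replicate 1, PWK/PhJ replicate 1 (0.0611) or PWK/PhJ replicate 3 (0.134), and reached 0.407 without PWK/PhJ. The other position named by size (chr5:119668862) had 52.0, 71.4 and 70% in PWK/PhJ and 4.8, 19.4 and 8.3% in 129S1/SvImJ, and samples of 6 other strains overlapped those of PWK/PhJ. Its adjusted p was 0.0206, and the call was lost in 5 of 35 alternatives. The adjusted p was 0.1055 without 129S1/SvImJ replicate 1, 0.0849 without replicate 3 of that strain and 0.0932 with an offset of 1 in the log ratio. It was 0.0674 with the replicate number as a block and 0.0591 without PWK/PhJ. The last one (chr5:119684773), just beyond the far end, was at 100% in all 23 listed samples of 8 strains and at 50 and 33.3% in the 2 listed NZO/HlLtJ samples. The other strand of this CpG (chr5:119684772) had a mean of 80.1% in NZO/HlLtJ and 79.7% over all samples. The parts of coverage and of strain variants in this call were not tested.

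The second window, chr5:119674001-119675000, holds 10 positions 3467 to 4466 bp into the span. PWK/PhJ had 27.8, 29.4 and 38.6%, and WSB/EiJ, the lowest strain, 9.1, 4.5 and 4.0%. In A/J, with 26.1, 28.6 and 6.4%, and DBA/2J, with 27.4, 19.7 and 11.0%, the samples of 1 strain lay far apart, and those of A/J overlapped PWK/PhJ. The means were 31.9% ± 5.84 in PWK/PhJ and 5.90% ± 2.81 in WSB/EiJ, with an adjusted p of 0.0116. It rested on PWK/PhJ, with 0.222 without the strain and 0.0510 without its replicate 1.

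The third, chr5:119675001-119676000, follows directly with 6 positions. PWK/PhJ had 58.8, 43.8 and 58.9%, NZO/HlLtJ 23.1, 18 and 31.2%, and 129S1/SvImJ 18.7, 24 and 32.2%. CAST/EiJ (46.9, 51.1 and 37.5%), DBA/2J (52.0, 51.7 and 39.4%) and WSB/EiJ (40.9, 53.0 and 42.8%) overlapped PWK/PhJ. The mean was 53.8% ± 8.74 in PWK/PhJ and 24.1% ± 6.65 in NZO/HlLtJ, with an adjusted p of 0.00069. Without PWK/PhJ the adjusted p was 0.0049 and the span of 23.6 points was too small for a call.

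**Figure D3:**
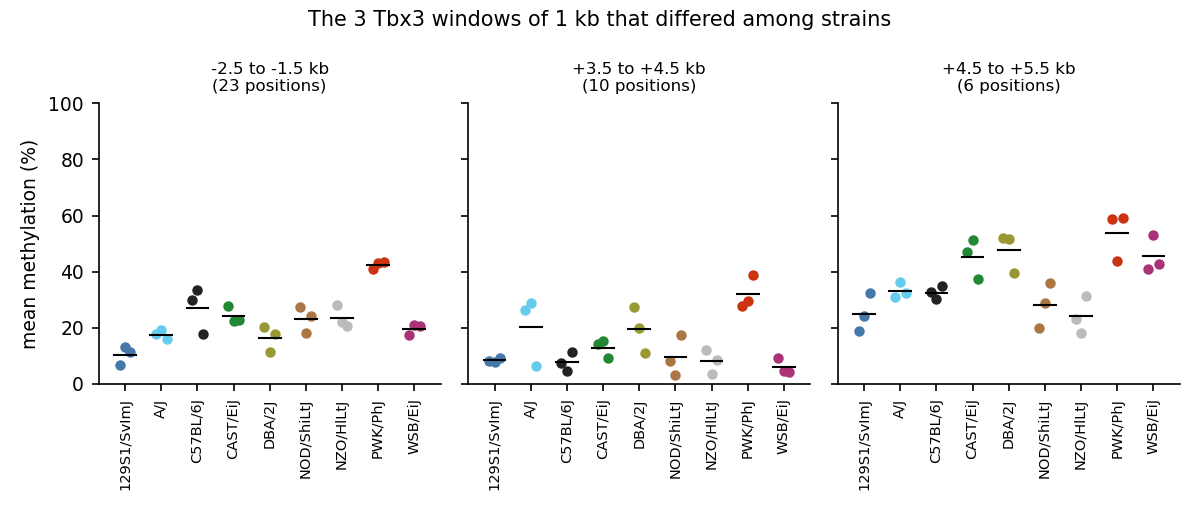
Mean methylation of the 3 Tbx3 windows of 1 kb, with 1 point per mouse, a line at the mean of each strain, percent methylation on the y axis and strains on the x axis. In the first window the 3 PWK/PhJ samples, at 40.8 to 43.3%, lie above all others, and in the other 2 windows they overlap samples of other strains.

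A further 3 windows passed an adjusted p of 0.05 without reaching the span of 25 points. With a span of at least 10 points, 6 of the 41 tested windows were called (14.6%), against 17.8% of all windows. In the body of Axin2 (chr11:108936001-108937000, 13 positions) the CAST/EiJ samples, at 42.3, 46.9 and 45.1%, lay above all others, the lowest strain being NZO/HlLtJ at 26.1, 30.1 and 29.4% (adjusted p 0.0018). The share of all windows in which CAST/EiJ lay above all other samples was not counted. CAST/EiJ was the highest strain in 23.8% of the called windows of the genome. In the body of Rnf43 (chr11:87729001-87730000, 12 positions) the strain means ran from 83.8% in WSB/EiJ to 94.4% in CAST/EiJ (adjusted p 0.00076). Downstream of Tbx3 (chr5:119687001-119688000, 50 positions, overlapping Tbx3os2) they ran from 30% in WSB/EiJ to 46.1% in NOD/ShiLtJ (adjusted p 0.00090). In that last window the PWK/PhJ samples had 39.1, 34.6 and 34.3% and their mean was not the highest among strains, as it was in the 3 called windows. Over the genome PWK/PhJ was the highest strain in 28.5% of the called windows.

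Intermediate methylation, here 20 to 80% in the mean of all samples, was uncommon at the 10 genes. It was found at 114 of 2086 positions (5.47%), compared with 8.17% of the positions of all protein-coding genes with their flanks and 10% of all positions. Tbx3 held 70 of the 114, which was 18% of its 389 positions. Without Tbx3 the share was 2.59%. Of 8305 genes with at least 100 positions, 9.20% had a higher share than Tbx3, and the median gene had 3.82%. Rnf43 followed with 6.42%, then Lgr5 (3.60%), Axin2 (3.59%), Ctnnb1 (2.33%), Glul (2.00%), Apc (1.30%), Znrf3 (0.418%) and Axin1 with 0. Lect2, with 3 of only 31 positions, had 9.68%.

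**Figure D4:**
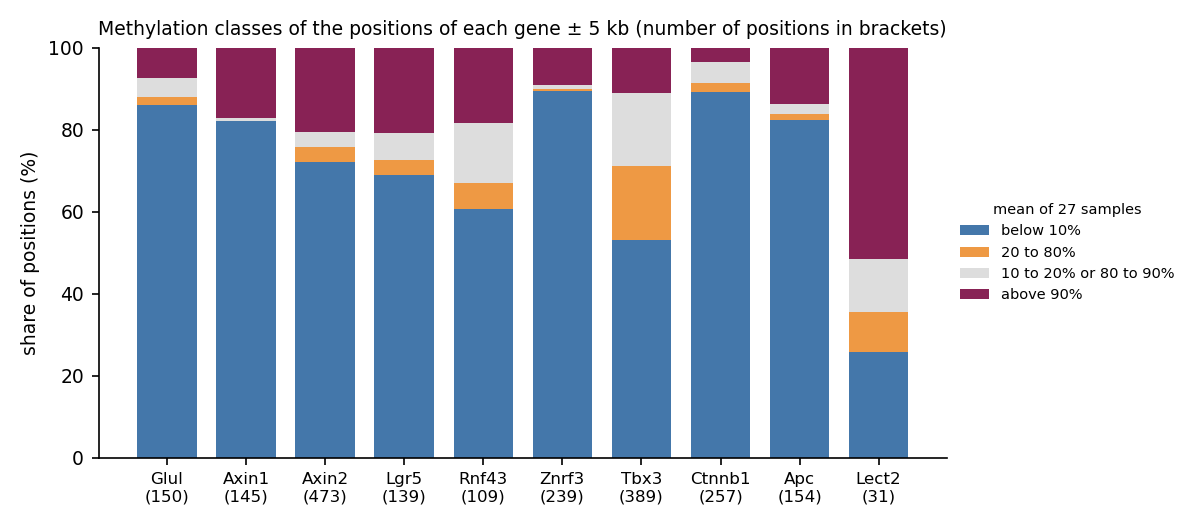
Share of positions by methylation class for each gene with 5 kb either side, with the share in percent on the y axis and the number of positions under each name. Most bars consist of positions under 10% and above 90%, while Tbx3 has 18% at 20 to 80%.

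A position was intermediate in every strain at 30 places (1.44%), 19 of them at Tbx3, against 2.04% of the positions of protein-coding genes with flanks and 2.47% of all positions. The other 11 were 1 at Glul, 2 each at Axin2, Lgr5, Rnf43 and Ctnnb1, and 1 each at Apc and Lect2. At Glul this was the position 1872 bp from the start (chr1:153901801), at the edge of the unmethylated stretch, with strain means from 23.3% in WSB/EiJ to 72.1% in CAST/EiJ. At Lect2 it lay 8951 bp into the gene (chr13:56539587), at 23.4% in PWK/PhJ and 59.2% in WSB/EiJ. Neither position was called different among strains, with adjusted p of 0.466 at Glul and 0.619 at Lect2 in limma's F test. At Ctnnb1 the 2 lay -1031 and -882 bp from the start, outside the unmethylated stretch.

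Windows with strain means all between 20 and 80% differed in what they were made of. The largest, the Tbx3 window of 50 positions downstream, held 17 positions under 20%, 27 at 20 to 80% and 6 above 80%. The Tbx3 window chr5:119685001-119686000, with 26 positions, held 12, 11 and 3. The Axin2 body window with a mean of 33.5% held 9 positions under 20%, 4 above 80% and none between, so that none of its positions was itself intermediate. A window just upstream of the Axin2 start region (chr11:108917001-108918000, 11 positions, mean 70.1%) held 8 intermediate positions and 3 above 80%, and ran from 57.8% in PWK/PhJ to 79.4% in DBA/2J without a call. In the called Tbx3 window of 6 positions, 5 were intermediate.

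Counted per sample, the share of positions of the 10 genes at 20 to 80% ran from 5.46 to 8.35%. It was 8.16% ± 0.175 (SD, n = 3) in PWK/PhJ, 7.32% ± 0.103 in CAST/EiJ, 6.65% ± 0.433 in C57BL/6J, 6.63% ± 0.469 in WSB/EiJ, 6.51% ± 0.547 in DBA/2J, 6.28% ± 0.447 in NOD/ShiLtJ, 6.18% ± 0.218 in NZO/HlLtJ, 6.16% ± 0.181 in 129S1/SvImJ and 5.74% ± 0.252 in A/J. All PWK/PhJ samples lay above all others, and the 6 strains from C57BL/6J to 129S1/SvImJ differed from their neighbours in this order by less than their SDs. Between strains this share differed (F = 12.9, p = 4e-05 by permutation, with 100000 resamples). F was 4.91 without PWK/PhJ (permutation p = 0.00468), a setting added after the data were seen, and 5.24 with limits of 30 and 70% (permutation p = 0.00106). Without Tbx3, also added then, F was 2.44 (permutation p = 0.0553) and the highest strain was CAST/EiJ at 4.34%. With the spans alone, without the flanks, F was 2.38 (permutation p = 0.0627). Over all positions of the genome PWK/PhJ had 11.4% ± 0.155, DBA/2J, the highest, 11.5% ± 0.142 and CAST/EiJ, the lowest, 10.5% ± 0.173. The order at the 10 genes was thus not that of the genome. The genome's share also varied between strains by more than these SDs, and was not tested.

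**Figure D5:**
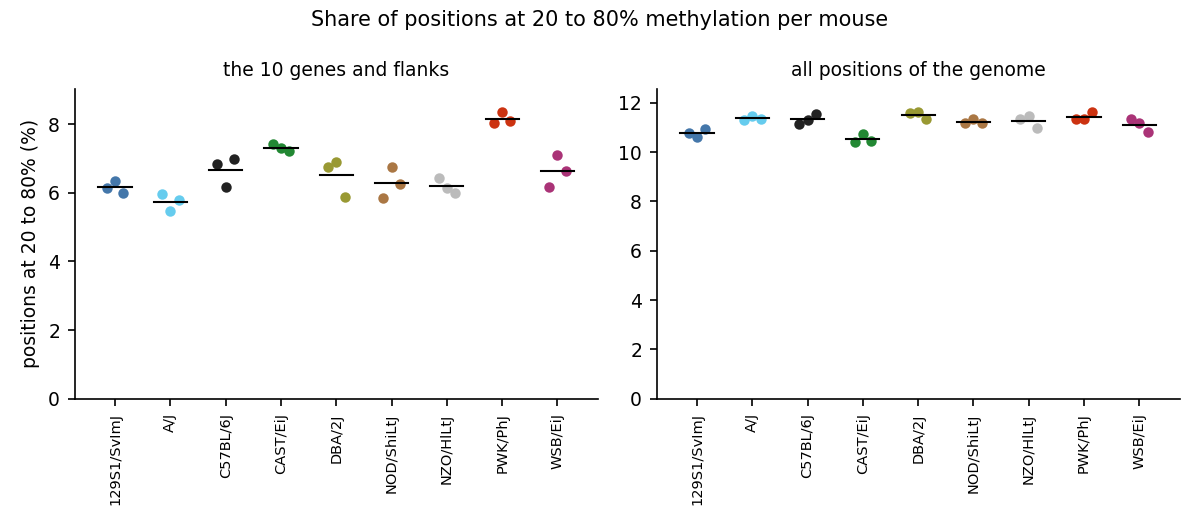
Share of positions at 20 to 80% methylation, with 1 point per mouse and a line at the strain mean, for the 10 genes with flanks on the left and the whole genome on the right. The y axes are in percent and start at 0. PWK/PhJ is highest on the left, at 8.16%. On the right it has 11.4%, where strain means run from 10.5% in CAST/EiJ to 11.5% in DBA/2J.

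The other genes of the pathway and of zonation were read in the same fits. Of 51 further Wnt pathway genes, from ligands and receptors to antagonists, 3 of 20 tested promoters or ends and 10 of 45 tested bodies were called, compared with 16.4% and 14.0% in the genome. Sfrp2, a secreted Wnt antagonist, had the widest span, from 2.20% in WSB/EiJ to 47.4% in PWK/PhJ over 115 promoter positions (adjusted p 5.68e-15). The end of Dkk3, a member of another family of antagonists, ran from 6.98% in WSB/EiJ to 36.7% in NZO/HlLtJ. The end of Rspo2, an R-spondin, was highest in DBA/2J at 15.9%. Among the bodies, that of Wnt5a, a ligand, ran from 14.2% in WSB/EiJ to 42.5% in A/J, and those of the receptors Fzd1, Fzd5 and Lrp6, of Gsk3b and Apc2 of the destruction complex and of Tcf7 were called as well.

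Among 19 genes with zonal expression in the liver other than the 10, 2 of 6 tested promoters or ends and 9 of 13 tested bodies were called, where the shares in the genome were 16.4% and 14.0%. In the periportal list 6 of 7 bodies were called, namely Ass1 and Cps1 of the urea cycle, Pck1 of gluconeogenesis, Hal of histidine breakdown, Cyp2f2 and Hsd17b13. In the pericentral list 3 of 6 were called, Cyp1a2, Cyp7a1 (the rate-limiting enzyme of bile acid synthesis) and Slc13a3. Cps1 ran from 42.8% in WSB/EiJ to 74.5% in A/J, and Cyp7a1 from 48.2% in C57BL/6J to 83.1% in WSB/EiJ. The 10 genes had no called body, and whether the lists differ from the 10 was not tested. The pathway and zonation lists were chosen with earlier results of these data known, and whether they differ from the genome was not tested.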

How the data were processed

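The authors deposited, for each of 27 samples, a list of single positions with a percent methylation and no read counts, per the file headers. Per the submitters' processing notes, Trim Galore 0.6.3, Bowtie2 and Bismark 0.22 were used with the GRCm38 (mm10) build. Any coverage filter is not given in the sources used here. Of the positions in RefSeq promoter windows, 99.96% fell on a CpG of GRCm38.p6. C57BL/6J files name the mitochondrial chromosome differently, so a processing difference cannot be told apart from that strain.

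The test was limma's moderated F over 9 strains on log2((percent + 5)/(100 - percent + 5)), fitted to all features of the genome with Benjamini-Hochberg adjustment. It stood in for a planned test on counts. It was computed in Python 3.11.15 (numpy 2.4.6) to allow missing values, and gave the same calls as limma 3.58.1 on 57387 windows. It was tested on simulated data. Every gene of the list was named, with all called windows, at most 3 called positions per gene by span, and the 5 largest windows with intermediate strain means. Pathway and zonation genes were named only among those called. The genes and lists were chosen with earlier results of these data known. Replicate numbers were not treated as pairing samples in the main fits. The value of 1 cell type marker is not reported here.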

Additional observations from a re-analysis of the deposited data

How the results depend on the processing

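The 10 genes' numbers of called features were recomputed under other settings. The 14 called positions became 8 with an offset of 1 in place of 5 (2.89% of all positions tested), 23 with untransformed percentages (5.47% of all), and 9 to 18 with single samples left out (3.89 to 4.51% of all). The 3 called windows became 6 with a span of at least 10 points (17.8% of all windows), 5 with at least 3 positions per window (7.35% of all), and 2 to 4 with single samples left out (7.53 to 8% of all). Without PWK/PhJ, a setting added after the data were seen, 7 positions and 0 windows were called, against 2.89% of all positions and 5.82% of all windows. Promoters and ends kept 0 calls throughout, against 4.79 to 19.2% of all promoters and ends over these settings. Bodies had 0 to 1 with single samples left out, against 13.0 to 14.2% of all bodies. The F of the intermediate share was 9.43 to 16.6 with single samples left out, 2.38 without the flanks and 2.44 without Tbx3, the last also added later. The mean level of the bodies moved from 52.6% to 54.0% on positions listed in all 27 samples and to 54.6% with strands averaged. Single bodies moved further. On positions listed in all 27 samples Lgr5 went from 61.1 to 71.5% and Glul from 41.8 to 37.5%. With strands averaged Glul was at 52.1%, Axin1 went from 17.3 to 22.3% and Ctnnb1 from 12.6 to 17.8%. Except at Rnf43 and Lect2, each body moved by more than its SD over the 27 samples in either setting or both. The cause of these changes was not tested.

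With the replicate block, 7 positions, 3 windows, 0 promoters and 0 bodies were called, where the shares over all features were 3.18%, 7.18%, 14.3% and 12.4%, and the F of the intermediate share was 10.6. With strain means subtracted, samples of different strains with the same number had a mean correlation of 0.0008, and none of 76 pairs exceeded 0.1. The mean was -0.0002 for pairs with different numbers. Whether samples shared a day, a litter or a batch was not tested. The unknown coverage limits single positions most, since values such as 0, 50 and 100% may rest on few reads.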
